A study of Mus musculus with 36 samples.

Results

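The liver RNA of *Pik3r1* mutant mice was examined for 43 genes that mark the cells of the liver other than hepatocytes. They were 15 endothelial genes, 11 genes of Kupffer cells and other immune cells, 12 genes of stellate cells and 5 genes of bile duct cells, taken by gene symbol from a table of 38283 genes. All 43 had a row, and 42 passed the filter on low counts. *Cd3e*, part of the T cell receptor complex, did not pass, at 0 to 1.21 counts per 1000000 counts of the library (CPM) over all mice.

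Livers came from 36 male C57Bl/6J mice of 16 weeks, with 6 of each genotype, wild-type and WT/Y657*, in each feeding state. WT/Y657* mice were heterozygous for the Y657* allele of *Pik3r1*, which ends the protein early in place of a tyrosine, introduced in embryonic stem cells with a neomycin cassette between LoxP sites, and both genotypes shared the backcrossed C57Bl/6J background and the chow diet. Fed mice had eaten freely until harvest, fasted mice had gone 16 h without food, and refed mice had received chow again for 6 h after a 16 h fast. Each library was 1 liver sample of 1 mouse and held 8839488 to 19542775 counts (median 13596665.5). *Pik3r1* itself was at 82.4 to 158 CPM in wild-type and 74.5 to 182 CPM in WT/Y657* mice, and these counts sum both alleles, so they do not check the genotype labels. Mice are named here as in their labels, which start with ALC for fed, ONF for fasted and RF6 for refed mice, give the genotype as WT or MT (WT/Y657*) and end in a mouse number. These numbers run in series. Fasted and refed mice of both genotypes fell into a lower series, ONF_MT_806 to RF6_WT_828, and a higher one, RF6_WT_896 to ONF_MT_923, with 3 mice of each group in each. Of the fed mice, ALC_WT_847 to ALC_WT_850 were all wild-type, ALC_MT_866 to ALC_MT_869 all WT/Y657*, and the series in between, ALC_WT_856 to ALC_WT_860, held 3 WT/Y657* and 2 wild-type mice. What the series stand for is not stated. In whole liver, fewer cells of a type and less RNA per cell cannot be told apart.

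Liver sinusoids are lined by fenestrated endothelial cells that clear proteins through scavenger receptors and send Wnt and BMP signals to the hepatocytes beside them. Kupffer cells are the resident macrophages within the sinusoids, and stellate cells, between endothelium and hepatocytes, store vitamin A as retinyl ester and make collagen. Bile ducts are lined by cholangiocytes, which carry keratins absent from most hepatocytes.

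Promoter windows of 4 genes that changed with feeding are shown because they represent the endothelial markers, the vitamin A store, the growth factors and the collagens among the results. The windows hold the 250 bases before the RefSeq start on GRCm38.p6, on the strand of the gene, and 31 of the 43 genes had an entry. Capitals mark, in each window, the matches on either strand to the 1 motif named with it, out of AGGAAG (the core of the motif bound by ETS factors), CCAAT and TATAAA. The run AGGAAGGAAG in the *Clec4g* window holds 2 overlapping matches, and CTTCCT is a match on the other strand.
*Clec4g*, chr8:3720652-3720901 (minus strand), AGGAAG in capitals: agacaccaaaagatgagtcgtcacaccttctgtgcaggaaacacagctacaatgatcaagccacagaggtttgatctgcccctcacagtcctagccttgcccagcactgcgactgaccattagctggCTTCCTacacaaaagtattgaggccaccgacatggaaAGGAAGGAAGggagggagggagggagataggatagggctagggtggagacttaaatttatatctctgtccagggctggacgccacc
*Lrat*, chr3:82903975-82904224 (minus strand), CCAAT in capitals: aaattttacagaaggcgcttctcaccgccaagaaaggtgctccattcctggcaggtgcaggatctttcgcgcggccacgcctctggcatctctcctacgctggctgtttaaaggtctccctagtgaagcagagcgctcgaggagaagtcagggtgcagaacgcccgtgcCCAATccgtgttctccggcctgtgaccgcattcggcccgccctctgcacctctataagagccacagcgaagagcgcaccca
*Hgf*, chr5:16553245-16553494 (plus strand), AGGAAG in capitals: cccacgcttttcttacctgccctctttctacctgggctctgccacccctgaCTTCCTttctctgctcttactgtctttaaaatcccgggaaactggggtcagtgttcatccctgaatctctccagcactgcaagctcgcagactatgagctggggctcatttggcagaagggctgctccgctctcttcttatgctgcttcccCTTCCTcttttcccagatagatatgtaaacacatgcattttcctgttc
*Col3a1*, chr1:45311288-45311537 (plus strand), TATAAA in capitals: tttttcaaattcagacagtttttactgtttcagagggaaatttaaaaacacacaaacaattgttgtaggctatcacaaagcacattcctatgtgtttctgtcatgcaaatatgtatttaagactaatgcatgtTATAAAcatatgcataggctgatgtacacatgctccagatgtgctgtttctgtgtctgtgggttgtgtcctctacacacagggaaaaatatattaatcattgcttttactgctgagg
AGGAAG was found in 13 of the 31 windows, among them *Eng*, *Stab1*, *Stab2*, *Tie1*, *Marco* and *Cd5l*, and in 29.2% of 27025 windows of all genes. CCAAT was found in 10 of 31, among them *Col1a2*, *Wnt2* and *Clec4f*, against 34.5% of all windows, and TATAAA in 4 of 31 against 13% of all. By class, AGGAAG was held by 5 of 9 endothelial, 5 of 10 Kupffer and immune, 1 of 9 stellate and 2 of 3 duct windows. These matches describe the letters and were not tested as binding sites.

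Levels were compared between genes as mean CPM per kilobase of exon over the 36 mice. The highest of the 43 were *Cd5l*, a protein secreted by macrophages, at 53.7 CPM per kilobase, *Lyz2*, the lysozyme of macrophages, at 45.1, *Clec4f*, a lectin of Kupffer cells, at 40.6 and *Dcn*, the matrix proteoglycan decorin, at 27.5. Of the endothelial genes *Clec4g*, a sinusoidal lectin, stood highest at 19 CPM per kilobase. The duct keratins *Krt7* and *Krt19* stood at 0.102 and 0.549, *Epcam*, an adhesion molecule of duct cells, at 0.526 and *Sox9*, a transcription factor, at 0.744, so among the duct markers only *Spp1*, which encodes the secreted protein osteopontin and is also made by other cells, was above 1 CPM per kilobase, at 19.1. *Krt7* averaged 9.75 counts a library and *Krt19* 14.1, so the duct keratins were at the edge of detection. By summed CPM, the endothelial class ranged from 462 to 694 over all mice and the stellate class from 366 to 742, against 253 to 865.8 for the Kupffer and immune class.

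**Figure D1:**
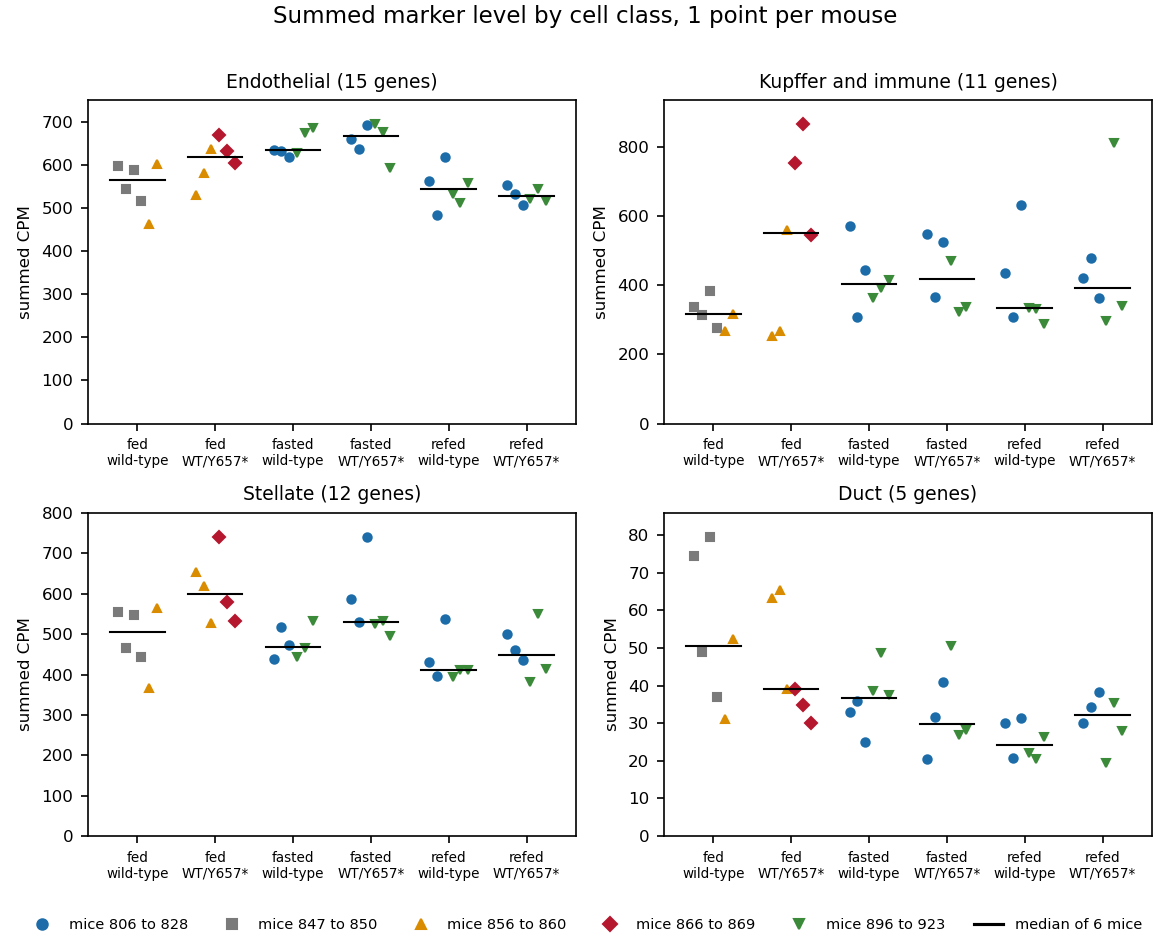
Summed CPM of the markers of each cell class (y axis, CPM) by genotype and feeding state (x axis), with 1 point per mouse, symbols for the mouse number series and lines for the median of 6 mice. Kupffer and immune sums of fed WT/Y657* mice spread from 253 to 865.8, those of fed wild-type mice from 268 to 384.

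Each comparison was tested gene by gene with edgeR's quasi-likelihood test over the 13945 genes that passed the filter, with Benjamini-Hochberg adjustment and a threshold of 0.05. Values after ± are standard errors (SE) of log2 fold changes. Fasting of wild-type mice changed 11 of the 42 markers, 8 upwards and 3 downwards, where 32% of all genes changed (14.5% upwards and 17.5% downwards). Among WT/Y657* mice fasting changed 9, 3 upwards and 6 downwards, where 32.9% of all genes changed (15.2% and 17.7%). Refeeding changed 11 in wild-type mice, 1 upwards and 10 downwards (30.2% of all genes, 16.5% and 13.7%), and 10 in WT/Y657* mice, 1 upwards and 9 downwards (31.3% of all genes, 17.1% and 14.2%). The shares of markers that passed, 26.2% and 21.4% for fasting and 26.2% and 23.8% for refeeding, were below the shares of all genes in these 4 comparisons. Between genotypes 2 markers were higher in fed WT/Y657* mice (2.37% of all genes passed, 1.21% higher and 1.15% lower) and 3 in fasted ones (13.1% of all genes, 6.43% higher and 6.63% lower). In refed mice 0 markers passed (0.0287% of all genes, 0.0215% higher and 0.00717% lower). In that comparison 8 of 42 had an unadjusted p under 0.05, and DESeq2 and edgeR's likelihood ratio test also called 0. The genotype difference in the fasting response passed for 1 marker, downwards (4.35% of all genes, 2.59% higher and 1.76% lower). For the refeeding response 0 passed (2.06% of all genes, 0.595% higher and 1.46% lower), with 1 of 42 at an unadjusted p under 0.05 and 0 by DESeq2. The fasting and refeeding comparisons of a genotype share its 6 fasted mice, so they are not independent of each other.

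**Figure D2:**
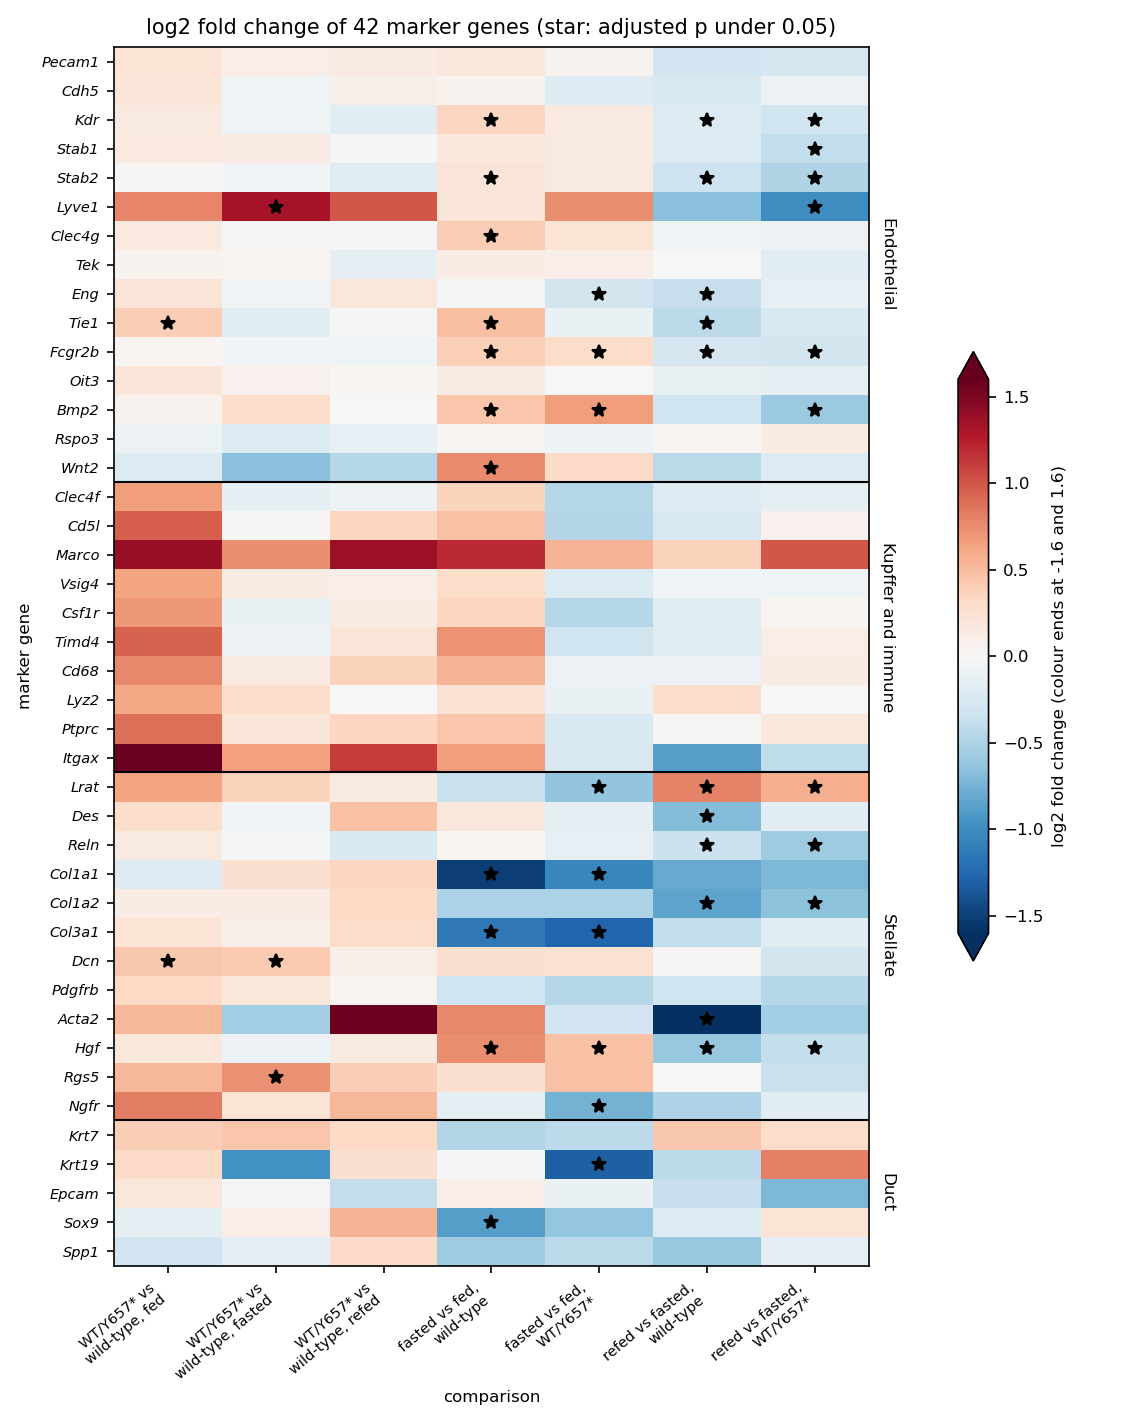
log2 fold change (colour, cut at -1.6 and 1.6) of the 42 tested markers (rows, by class) in 7 comparisons (columns), with a star where the adjusted p was under 0.05. Stars lie mainly in the 4 feeding columns and in endothelial and stellate rows, and no Kupffer or immune gene has one.

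Of the 15 endothelial markers, *Stab2*, *Fcgr2b*, *Kdr* and *Tie1* rose on fasting and fell on refeeding in wild-type mice, and *Fcgr2b* and *Bmp2* did so in WT/Y657* mice. In all, 7 rose on fasting in wild-type mice and 0 fell. Their median log2 fold change was 0.20, against 0.010 over all genes tested. In WT/Y657* mice 2 rose and 1 fell (median 0.14, all genes -0.0079). On refeeding 0 rose, 5 fell in wild-type mice (median -0.27, all genes 0.0017) and 6 fell in WT/Y657* mice (median -0.26, all genes -0.0080). Of all genes 14.5% rose and 17.5% fell on fasting of wild-type mice, and 15.2% and 17.7% in WT/Y657* mice. Refeeding raised 16.5% and lowered 13.7% of all genes in wild-type mice, and 17.1% and 14.2% in WT/Y657* mice. All fasted mice carried numbers of other series than the fed mice, so fasting and mouse number series cannot be told apart. Refed and fasted mice came from the same 2 series.

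*Stab2*, a scavenger receptor of sinusoidal endothelium that takes up hyaluronan, was at 93.1 to 111 CPM (median 101) in fed, 114 to 127 (median 115) in fasted and 86.9 to 107 (median 91.8) in refed wild-type mice. All 6 fasted mice were above every fed and every refed mouse. The log2 fold change was 0.21 ± 0.068 (SE, adjusted p = 0.0156) on fasting and -0.33 ± 0.068 (SE, adjusted p = 0.00025) on refeeding. Among the mutant mice *Stab2* was at 94.5 to 117 CPM (median 101) fed, 97.9 to 132 (median 113) fasted and 73.2 to 91.8 (median 82.9) refed. Fed and fasted mice overlapped, whereas all refed mice were below every fasted mouse, with a log2 fold change of -0.48 ± 0.068 (SE, adjusted p = 9.82e-07) on refeeding. Complete separation of this kind was found for 4 of 42 markers in each refeeding comparison, against 16.9% (wild-type) and 11.9% (WT/Y657*) of all genes. On fasting it was found for 2 of 42 markers in wild-type and 1 of 42 in WT/Y657* mice, against 17.6% and 11.5% of all genes.

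*Fcgr2b*, the inhibitory Fc receptor by which sinusoidal endothelium clears immune complexes, also had its highest medians in fasted mice. In wild-type mice it was at 23.3 to 33.5 CPM (median 29.9) fed, 33.4 to 40.1 (median 38.2) fasted and 29.1 to 33.4 (median 31.5) refed, with 5 of 6 fasted mice above every fed mouse. In mutant livers it was at 23.8 to 35.4 CPM (median 30.1), 34 to 39.4 (median 36.5) and 28.6 to 31.2 (median 29.9), and the refed mice all lay below the fasted ones. It rose on fasting by 0.38 ± 0.085 (SE, adjusted p = 0.000625) in wild-type and 0.29 ± 0.084 (SE, adjusted p = 0.00652) in WT/Y657* mice on the log2 scale, and the log2 change on refeeding was -0.27 ± 0.084 (SE, adjusted p = 0.013) and -0.29 ± 0.084 (SE, adjusted p = 0.00769). With scaling by library size alone both refeeding calls were lost (-0.20 and -0.19, adjusted p = 0.0801 and 0.0874).

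Among the receptors of vascular growth factors, *Kdr*, the receptor of VEGF, was at 64.5 to 93.6 CPM (median 86.4) in fed, 91 to 119.8 (median 107) in fasted and 80.9 to 103 (median 89.8) in refed wild-type mice. The fasted mice stood highest, with 5 of 6 above all fed mice. Its log2 fold change on fasting was 0.35 ± 0.082 (SE, adjusted p = 0.00101) in wild-type mice and 0.15 ± 0.082 (SE, adjusted p = 0.173) in WT/Y657* mice, where it did not pass. On refeeding it was -0.32 ± 0.082 (SE, adjusted p = 0.00262) in WT/Y657* mice, at 76.9 to 86.3 (median 80.8) CPM against 85.6 to 115 (median 103) when fasted. The refeeding value of wild-type mice, -0.21 ± 0.082 (SE, adjusted p = 0.0428), lost its call with the likelihood ratio test, without the filter, with library size alone and without any 1 of 8 of the 12 mice, with the direction unchanged. *Eng*, a co-receptor of TGF-beta and BMP ligands, was at 49.1 to 60.5 CPM (median 52.5) in fasted and 35.4 to 51.3 (median 40.2) in refed wild-type mice, 5 of 6 refed mice being below all fasted ones, with a log2 fold change of -0.37 ± 0.096 (SE, adjusted p = 0.00334). In WT/Y657* mice it was at 53.1 to 72.6 CPM (median 61.3) fed and 40.2 to 55.2 (median 53) fasted, with 3 fasted mice below all fed ones, and it fell on fasting with a log2 fold change of -0.29 ± 0.095 (SE, adjusted p = 0.0171). That call was lost without ONF_MT_923 or ALC_MT_866. *Eng* shares exonic sequence with *Fpgs* on the other strand and its counts were not whole in 6 libraries, so its values are uncertain to that extent. *Tek*, the angiopoietin receptor, did not pass in any comparison, with log2 fold changes from -0.18 to 0.12 in the 7 comparisons of 2 groups.

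*Tie1*, an orphan receptor that pairs with the product of *Tek*, was the marker whose fasting response differed between genotypes. Fed wild-type mice had 10.8 to 17.3 CPM (median 14.8) and fasted ones 17 to 23.5 (median 19.8), with 5 of 6 fasted mice above all fed ones. Fed WT/Y657* mice had 14.8 to 22.9 CPM (median 19.1) and fasted ones 13.8 to 20.9 (median 17.6), which overlapped throughout. The log2 fold change on fasting was 0.48 ± 0.11 (SE, adjusted p = 0.000777) in wild-type and -0.11 ± 0.11 (SE, adjusted p = 0.468) in WT/Y657* mice, and the difference between them was -0.58 ± 0.15 (SE, adjusted p = 0.0216). That difference passed in each of the 24 fits that left out 1 mouse, from -0.65 to -0.52. It was not fitted with the mouse number series as a block, and among fed mice these series nearly followed genotype. The level in fed WT/Y657* mice was near that of fasted wild-type mice, and on refeeding of wild-type mice *Tie1* was at 12.9 to 17 CPM (median 14.7), 5 of 6 mice below all fasted ones, a log2 fold change of -0.42 ± 0.11 (SE, adjusted p = 0.00248).

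*Bmp2*, the ligand by which sinusoidal endothelium induces hepcidin in hepatocytes, was at 13.8 to 23.4 CPM (median 17.5) in fed, 19.8 to 28.5 (median 24.4) in fasted and 16.9 to 24 (median 19.8) in refed wild-type mice. In the mutant mice it was at 12.5 to 23.1 CPM (median 18.8), 24.2 to 38.6 (median 28.2) and 16.4 to 22.7 (median 20.1), so that all fasted mutant mice were above all fed and all refed ones. It rose on fasting by 0.45 ± 0.13 (SE, adjusted p = 0.00851) in wild-type and 0.67 ± 0.13 (SE, adjusted p = 0.000127) in WT/Y657* mice on the log2 scale. On refeeding the log2 fold change was -0.31 ± 0.13 (SE, adjusted p = 0.0692) in wild-type mice and -0.59 ± 0.13 (SE, adjusted p = 0.00061) in WT/Y657* mice. *Wnt2*, a ligand of endothelium around the central vein, had few counts, at 2.61 to 4.58 CPM (median 3.35) in fed and 4.33 to 6.73 (median 6.24) in fasted wild-type mice. It rose in that comparison by 0.76 ± 0.27 (SE, adjusted p = 0.0255), a call lost without ALC_WT_850, ALC_WT_860 or ONF_WT_824, and it did not pass elsewhere. *Rspo3*, the other Wnt signal of the central vein, was at 5.13 to 9.44 CPM over all 36 mice and passed in no comparison.

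Of 8 target genes of BMP signalling, read in whole liver, 5 rose on fasting in wild-type mice and 0 fell. Of all genes 14.5% rose and 17.5% fell in that comparison. *Hamp*, the hepcidin gene, did not pass on fasting in either genotype. Its log2 fold change was 0.25 (adjusted p = 0.62) in wild-type and -0.33 (adjusted p = 0.493) in WT/Y657* mice. The inhibitor of differentiation *Id1* was at 1.28 to 3.58 CPM (median 2.61) in fed and 7.10 to 19.4 (median 9.82) in fasted wild-type mice. These groups did not overlap, as was the case for 17.6% of all genes, and the log2 fold change was 2.13 ± 0.46 (SE, adjusted p = 0.000498). *Atoh8*, a transcription factor, rose by 1.43 ± 0.24 (SE, adjusted p = 1.76e-05) and *Smad7*, an inhibitor of the pathway, by 0.82 ± 0.19 (SE, adjusted p = 0.00107) on the log2 scale. Among the mutant mice 0 of the 8 rose and 1 fell on fasting, where 15.2% of all genes rose and 17.7% fell. The 1 that fell was *Hamp2*, a close copy of *Hamp* with which it may share reads, at a log2 fold change of -1.72 (adjusted p = 0.0359). *Id1* in the mutant mice was at 1.10 to 20.2 CPM (median 4.47) fed and 2.01 to 6.39 (median 4.21) fasted. The response differed between genotypes for 4 of the 8, all lower in WT/Y657* mice, where 1.76% of all genes were lower. Among them were *Id1*, by -2.75 ± 0.63 (SE, adjusted p = 0.0113), *Smad7*, by -1.13 ± 0.27 (SE, adjusted p = 0.0136) and *Id3*, by -1.71 ± 0.43 (SE, adjusted p = 0.0187). The difference for *Bmp2* was 0.22 ± 0.19 (SE, adjusted p = 0.554). Of the fasted mice, those with the WT/Y657* genotype were lower than wild-type in 5 of the 8 (6.63% of all genes), among them *Id3* at -1.43 (adjusted p = 0.00215). Between genotypes 0 passed in fed or refed mice, where 2.37% and 0.0287% of all genes passed. The median log2 fold change of the 8 was -0.78 in fasted, 0.28 in fed and -0.35 in refed mice. The calls of BMP targets were not repeated with a mouse left out, with DESeq2 or with the mouse number series as a block. The difference between responses includes the fed mice, whose series nearly followed genotype. The target lists were chosen with results of these mice known, and whether the targets follow *Bmp2* was not tested.

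Of 13 targets of Wnt signalling, 6 were lower in fasted WT/Y657* than in fasted wild-type mice and 0 higher, where 6.63% of all genes were lower. In fed WT/Y657* mice 1 was lower (1.15% of all genes), and 0 passed in refed ones (0.0287% of all genes). The median log2 fold change of the 13 was -0.71 in fasted, -0.29 in fed and -0.35 in refed mice. Over all genes it was 0.0021, 0.0079 and 0.0060, so the direction was not particular to fasted mice. The calls of Wnt targets were not repeated with a mouse left out or with the block. *Glul*, the glutamine synthetase of hepatocytes around the central vein, was at 885 to 1081 CPM (median 984) in wild-type and 363 to 833 (median 589) in WT/Y657* fasted mice. These groups did not overlap, as was the case for 5.04% of all genes, and the log2 fold change was -0.77 ± 0.19 (SE, adjusted p = 0.00509). *Lect2*, a secreted hepatocyte protein, had a log2 fold change of -0.70 (adjusted p = 0.00123) and *Oat*, ornithine aminotransferase, -0.71 (adjusted p = 0.00437). Of the ligands, *Wnt2* was at 4.33 to 6.73 CPM (median 6.24) in wild-type and 1.81 to 6.09 (median 3.70) in WT/Y657* fasted mice, with a log2 fold change of -0.67 ± 0.26 (SE, adjusted p = 0.0889). *Wnt9b*, another endothelial Wnt ligand, was at 1.1 to 1.6 CPM in wild-type and 0.22 to 1.0 CPM in WT/Y657* fasted mice, with -1.03 ± 0.34 (SE, adjusted p = 0.0364). Both ligands were read at few counts. *Wnt9b* was 1 of 25 other endothelial genes, of which 2 were higher and 2 lower in fasted WT/Y657* mice (6.43% and 6.63% of all genes). For *Rspo3* the log2 fold change was -0.22 ± 0.14 (SE, adjusted p = 0.314).

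Other endothelial markers passed in 1 or 2 comparisons. *Clec4g* was at 30.9 to 45.5 CPM (median 40.2) in fed and 44.5 to 60.8 (median 51.8) in fasted wild-type mice, 4 of 6 fasted mice being above all fed ones. It rose on fasting by 0.39 ± 0.11 (SE, adjusted p = 0.00676) on the log2 scale. Its counts were not whole in 29 of 36 libraries and its row spans a longer locus than the annotation gives the gene, so its values are uncertain. *Stab1*, a scavenger receptor related to *Stab2*, was at 90.4 to 142 CPM (median 108) in fasted and 76.3 to 97.4 (median 83.3) in refed WT/Y657* mice, with a log2 fold change of -0.40 ± 0.095 (SE, adjusted p = 0.00133). It shares exonic sequence with *Nt5dc2* on the other strand. *Pecam1* and *Cdh5*, which hold endothelial junctions together, and *Oit3*, a secreted protein of sinusoidal endothelium, passed in no comparison. They ranged over 15.6 to 33.4, 21 to 50.3 and 21.8 to 41.3 CPM in all 36 mice.

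*Lyve1*, the hyaluronan receptor of sinusoidal and lymphatic endothelium, was called between genotypes in fasted mice. It was at 6.03 to 11.5 CPM (median 8.75) in wild-type and 11.4 to 41.7 (median 18.9) in WT/Y657* fasted mice. Of the WT/Y657* mice 5 of 6 were above all wild-type mice, and the log2 fold change was 1.32 ± 0.39 (SE, adjusted p = 0.0218). Within the mouse number series, the mean log2 CPM was higher in WT/Y657* mice by 1.68 (lower numbers, 3 mice of each genotype) and 0.69 (higher numbers). Without ONF_MT_806 or ONF_MT_827 the call was lost (log2 fold change 1.24 and 1.04, adjusted p = 0.0553 and 0.0846). In fed mice the genotype difference was 0.78 ± 0.40 (SE, adjusted p = 0.301) and in refed mice 0.99 ± 0.41 (SE, adjusted p = 0.413). On refeeding of WT/Y657* mice *Lyve1* fell to 5.74 to 20.4 (median 8.69) CPM, a log2 fold change of -1.0 ± 0.38 (SE, adjusted p = 0.0435) that was lost without any 1 of 7 mice.

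**Figure D3:**
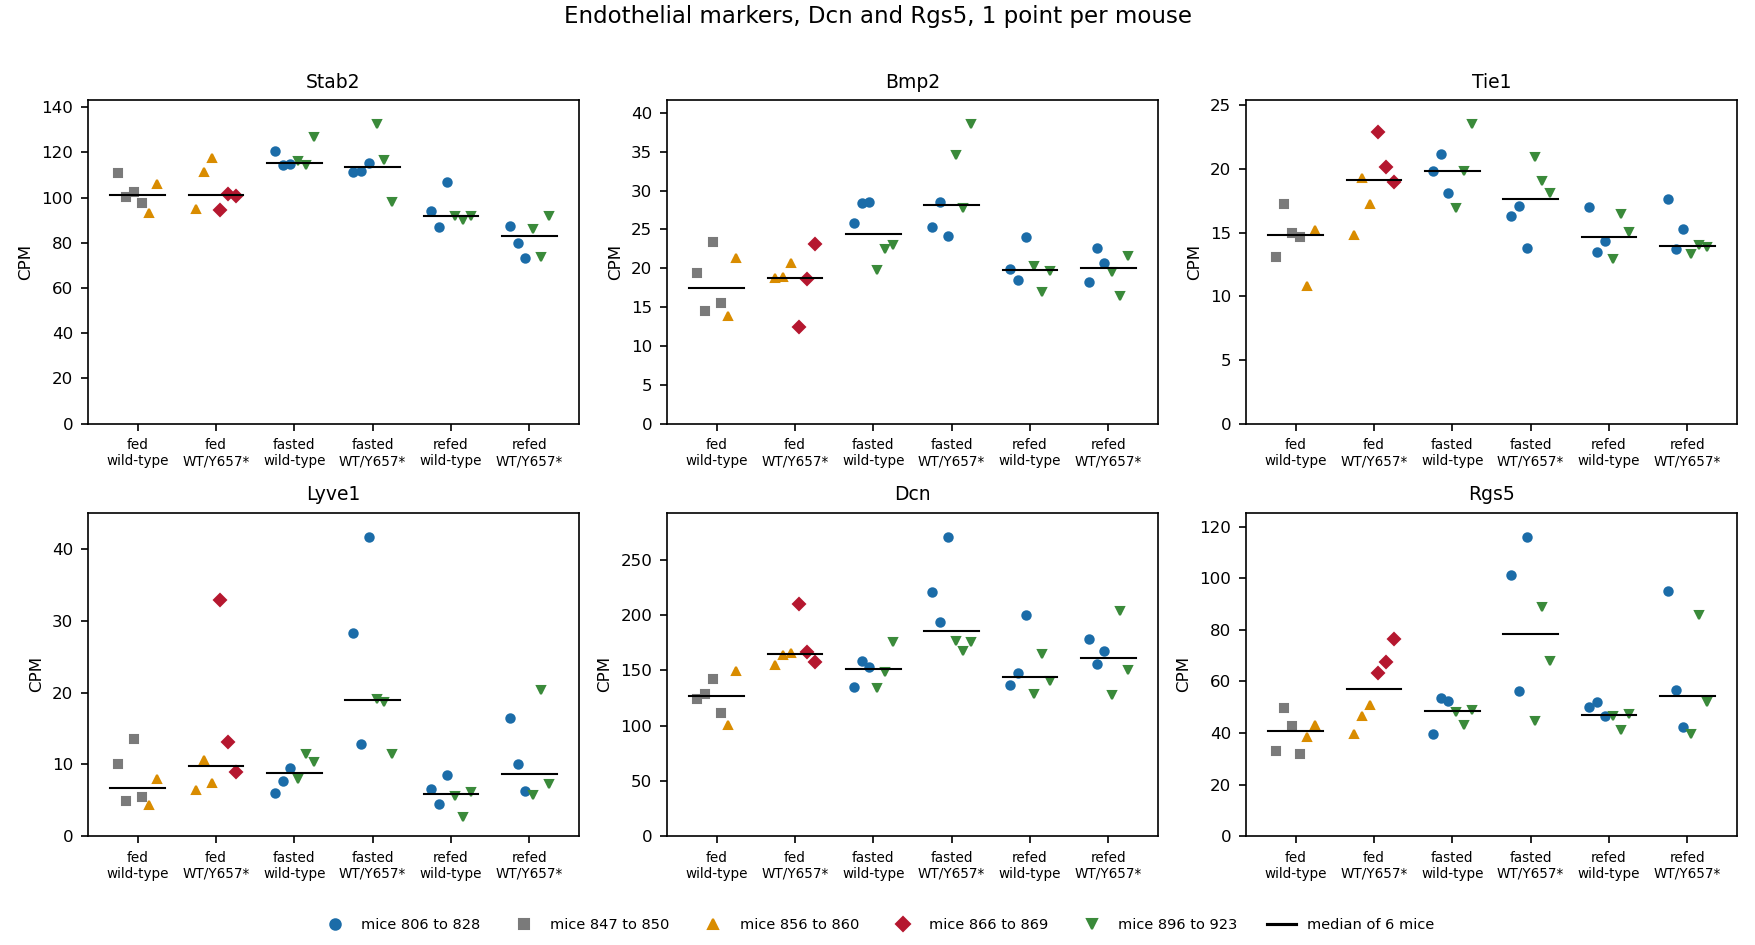
CPM (y axis) of 6 markers by genotype and feeding state (x axis), with 1 point per mouse and lines for the median of 6 mice. *Tie1* and *Dcn* were higher in fed WT/Y657* mice, *Lyve1*, *Dcn* and *Rgs5* in fasted WT/Y657* mice, and *Stab2* and *Bmp2* moved with feeding.

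Most markers had higher values in fed WT/Y657* than in fed wild-type mice, and few passed the test. Of the 42, 37 had a positive log2 fold change, with a median of 0.25 against 0.0079 over all genes tested, 16 had an unadjusted p under 0.05, and 2 passed. These were *Tie1*, at 0.40 ± 0.11 (SE, adjusted p = 0.0395), and *Dcn*, described with the stellate markers. Of the fed WT/Y657* mice 5 of 6 had more *Tie1* than any fed wild-type mouse. The 2 calls depended on the fit, and neither passed without the filter, with a fit of the fed mice alone or with the mouse number series as a block. The block left an adjusted p of 0.999 for both, at log2 fold changes of 0.38 for *Tie1* and 0.37 for *Dcn*. Scaling by library size alone moved the median of all genes to 0.11. In the 1 series that held both genotypes, 3 WT/Y657* and 2 wild-type mice, the mean log2 CPM of *Tie1* was higher by 0.40. The sum of 14 hepatocyte genes was 108017 to 133263 CPM in fed wild-type and 83422 to 124622 CPM in fed WT/Y657* mice, and its part in these differences was not tested.

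The Kupffer and immune class was the most variable in fed WT/Y657* mice. All 10 tested genes had a positive genotype log2 fold change in fed mice, from 0.61 to 1.58, with a median of 0.83 against 0.0079 over all genes tested. All 10 had an unadjusted p under 0.05, and 0 passed after adjustment, the lowest adjusted p being 0.0652 with edgeR's quasi-likelihood test. DESeq2 called 3 of the 10, *Cd5l*, *Timd4* and *Ptprc*, and the likelihood ratio test 2, *Cd5l* and *Ptprc*. The 10 genes were read in the same 12 livers and are not independent of each other. Among the fed mice 4 wild-type and 3 WT/Y657* mice belonged to series of 1 genotype. The 3 were ALC_MT_866, ALC_MT_868 and ALC_MT_869, and in these series genotype and mouse number series cannot be told apart.

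*Clec4f* was at 71.3 to 97.6 CPM (median 83.9) in fed wild-type mice and 69 to 191 (median 146) in fed WT/Y657* mice. Mice ALC_MT_857 and ALC_MT_858 were at 69.0 and 74.4 CPM, within or below the wild-type range, whereas ALC_MT_859, ALC_MT_866, ALC_MT_868 and ALC_MT_869 were at 144 to 191 CPM, above every wild-type mouse. The log2 fold change was 0.67 ± 0.24 (SE, adjusted p = 0.121). *Cd5l* split the same way, at 66.1 to 101 CPM (median 74.5) in wild-type, 65.3 and 68.8 CPM in ALC_MT_858 and ALC_MT_857, and 135 to 268 CPM in the other 4 WT/Y657* mice. Its log2 fold change was 0.96 ± 0.29 (SE, adjusted p = 0.0652). The class sum was 253 and 266 CPM in ALC_MT_857 and ALC_MT_858, 545 and 559 CPM in ALC_MT_869 and ALC_MT_859 and 753 and 865.8 CPM in ALC_MT_866 and ALC_MT_868, against 268 to 384 CPM in the 6 fed wild-type mice.

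*Csf1r*, the receptor that macrophages need for survival, was at 50.2 to 69.8 CPM (median 58.8) and 47.7 to 146 (median 99.6), with a log2 fold change of 0.70 ± 0.25 (SE, adjusted p = 0.131). Its row overlaps *Hmgxb3* on the other strand. *Vsig4*, the complement receptor of Kupffer cells, was at 17.3 to 24.5 CPM (median 20.6) and 13.3 to 52 (median 35.1), *Timd4*, which binds phosphatidylserine on dying cells, at 3.59 to 4.65 (median 4.36) and 2.7 to 13.8 (median 9.02). Their log2 fold changes were 0.63 ± 0.25 (SE, adjusted p = 0.177) and 0.94 ± 0.31 (SE, adjusted p = 0.0892). In each case the WT/Y657* mice reached both below and above the wild-type range. *Marco*, a scavenger receptor for bacteria, ranged over 4.49 to 10.1 CPM (median 5.25) and 2.48 to 34.3 (median 15), with 1.39 ± 0.56 (SE, adjusted p = 0.177). In refed WT/Y657* mice it was at 22.9 to 109.6 CPM (median 35.4), RF6_MT_898 being highest and the next mouse at 52.7 CPM. Refed wild-type mice were also above fed ones. Their mean log2 CPM was 4.09 and 4.13 in the 2 series, against 2.40 in fed wild-type mice of the mixed series and 5.08 and 5.54 in refed WT/Y657* mice.

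*Ptprc*, the phosphatase found on all leukocytes, was at 9.45 to 16.4 CPM (median 12.4) and 11.6 to 38.9 (median 19.2), with a log2 fold change of 0.88 ± 0.28 (SE, adjusted p = 0.0823). *Cd68* and *Lyz2*, proteins of the lysosome and granules of macrophages, had log2 fold changes of 0.77 (adjusted p = 0.129) and 0.61 (adjusted p = 0.205). *Itgax*, an integrin of dendritic cells, was at 0.363 to 1.13 CPM (median 0.790) and 0.674 to 4.86 (median 1.71), with 1.58 ± 0.58 (SE, adjusted p = 0.131) at few counts. *Cd3e*, which was not tested, was at 0 to 0.187 CPM in wild-type and 0.0896 to 0.906 CPM in WT/Y657* fed mice.

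Without ALC_MT_857 or without ALC_MT_858 the number of markers called in fed mice rose from 2 to 9. Conversely, it was 0 without ALC_MT_866, ALC_MT_868 or ALC_MT_869 and without ALC_WT_847, ALC_WT_849, ALC_WT_850 or ALC_WT_856, and 1 without ALC_WT_848. In the mixed series of fed mice the median genotype difference of the 11 immune genes was 0.17 in mean log2 CPM. Genes of other leukocytes were read in the same mice. The sum of 20 other macrophage and myeloid genes was 338 to 433 CPM in fed wild-type mice, 333 and 381 CPM in ALC_MT_857 and ALC_MT_858, and 526.4 to 818 CPM in the other 4. The sum of 14 lymphocyte genes was 4.09 to 6.91 CPM in fed wild-type mice, 21.2 and 22.3 CPM in ALC_MT_866 and ALC_MT_868 and 6.39 to 9.33 CPM in the other 4 fed WT/Y657* mice. Mice ALC_MT_859 and ALC_MT_869, which had high Kupffer sums, were among the latter, at 7.66 and 9.33 CPM. Of the tested lymphocyte genes 3 of 9 were higher in fed WT/Y657* mice (median log2 fold change 1.43), where 1.21% of all genes were higher. They were *Nkg7*, by 2.78 (adjusted p = 0.0132), *Cd79b*, by 1.43 (adjusted p = 0.0399) and *Gzma*, by 3.46 (adjusted p = 0.0407), which are genes of natural killer, B and cytotoxic cells. These calls were not repeated with a mouse left out or with the block. Of the other macrophage genes 1 of 19 was higher (median 0.71), the iron exporter *Slc40a1*, at 0.68 (adjusted p = 0.00717).

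**Figure D4:**
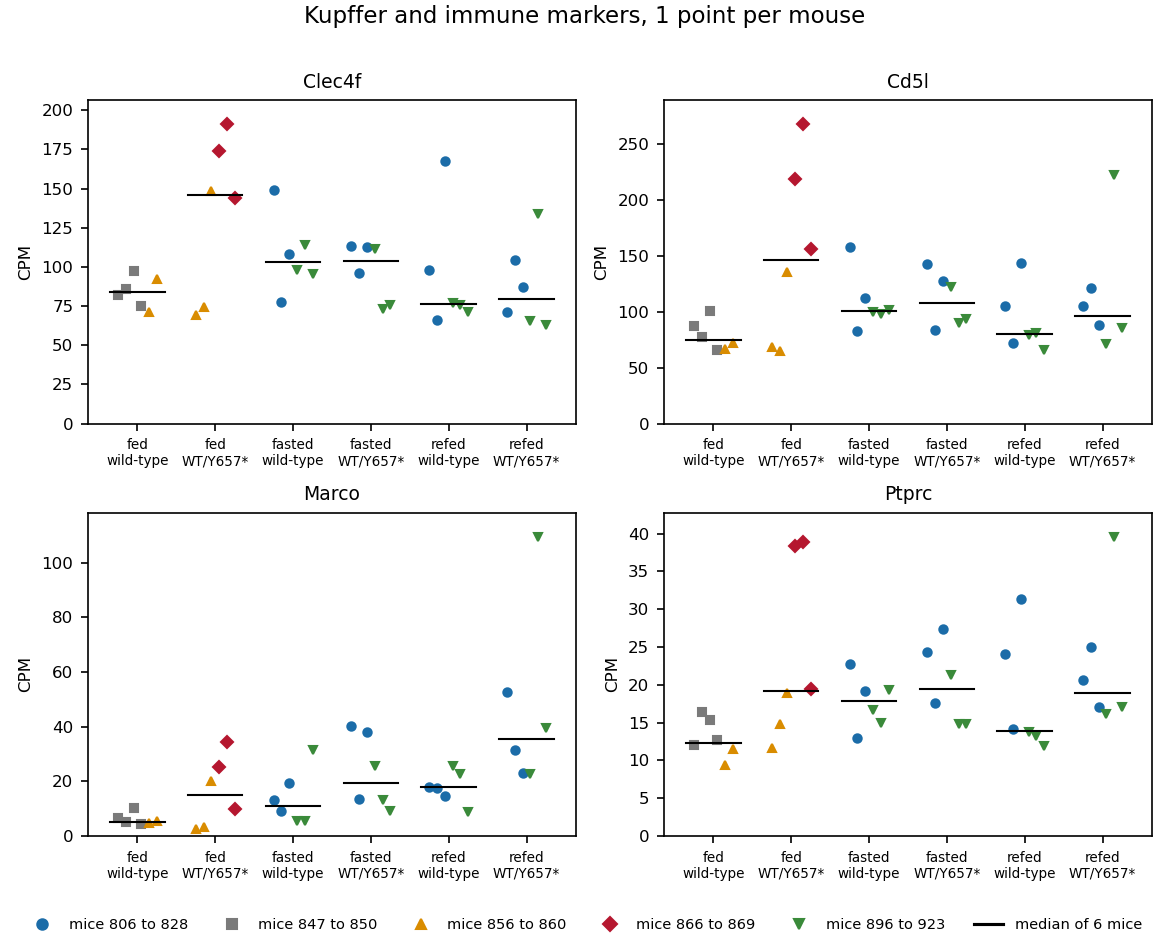
CPM (y axis) of *Clec4f*, *Cd5l*, *Marco* and *Ptprc* by genotype and feeding state (x axis), with 1 point per mouse and lines for the median of 6 mice. In fed WT/Y657* mice 2 mice lie among the wild-type mice and 4 above them for *Clec4f* and *Cd5l*.

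No Kupffer or immune gene passed on fasting or on refeeding. On fasting all 10 had a positive log2 fold change in wild-type mice (median 0.46, against 0.010 over all genes), with 2 at an unadjusted p under 0.05 and a lowest adjusted p of 0.0813. In WT/Y657* mice 1 of 10 was positive (median -0.25, all genes -0.0079), with 0 at an unadjusted p under 0.05. In wild-type mice DESeq2 called 1 of the 10, *Timd4*, a fit of the 2 groups alone called 4, *Cd5l*, *Timd4*, *Cd68* and *Ptprc*, and the likelihood ratio test called 0, and none of these 3 called any in WT/Y657* mice. The difference between these responses was negative for all 10, with a median of -0.75 against -0.012 over all genes, 4 at an unadjusted p under 0.05 and a lowest adjusted p of 0.175, for *Clec4f*. The 6 fed WT/Y657* mice enter that difference. On refeeding 3 of 10 in wild-type and 7 of 10 in WT/Y657* mice were positive, with medians of -0.14 and 0.053, and 0 had an unadjusted p under 0.05. Between genotypes 0 of the 10 passed in fasted mice (median 0.13, 0 at an unadjusted p under 0.05) or in refed mice (median 0.28, 1 at an unadjusted p under 0.05), and DESeq2 called 0 in both.

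Of the stellate markers, the growth factor gene *Hgf* rose on fasting, the collagen genes *Col1a1* and *Col3a1* fell on fasting, and the gene for retinol esterification rose on refeeding. In wild-type mice 1 of 12 rose and 2 fell on fasting (median -0.056, all genes 0.010), and in WT/Y657* mice 1 rose and 4 fell (median -0.38, all genes -0.0079). On refeeding 1 rose and 5 fell in wild-type mice (median -0.44), and 1 rose and 3 fell in WT/Y657* mice (median -0.37). Of all genes 32% and 32.9% passed on fasting and 30.2% and 31.3% on refeeding of wild-type and WT/Y657* mice.

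*Hgf*, hepatocyte growth factor, which stellate cells secrete and hepatocytes receive through MET, had the smallest adjusted p of the markers on fasting of wild-type mice. It was at 14.5 to 22.5 CPM (median 17.1) in fed, 26.6 to 32.9 (median 30.4) in fasted and 15.4 to 23.7 (median 19.3) in refed wild-type mice. The fasted mice lay above all fed and all refed ones. It rose by 0.74 ± 0.11 (SE, adjusted p = 1.45e-06) on fasting and its log2 fold change on refeeding was -0.61 ± 0.11 (SE, adjusted p = 3.76e-05). Among WT/Y657* mice *Hgf* was at 18.9 to 24.1 CPM (median 19.4), 21.8 to 32.7 (median 29.7) and 19 to 23.3 (median 22), with 4 of 6 fasted mice above all fed ones. The log2 fold changes were 0.47 ± 0.11 (SE, adjusted p = 0.00092) and -0.38 ± 0.11 (SE, adjusted p = 0.00671). All of these calls held without any 1 mouse. Of 6 other genes of the HGF pathway, *Met*, the receptor, was lower in WT/Y657* mice when fed, at -0.39 ± 0.10 (SE, adjusted p = 0.0378), and when fasted, at -0.30 ± 0.10 (SE, adjusted p = 0.0482). *Hgfac*, the protease that activates the factor, was lower in WT/Y657* than in wild-type fasted mice, at -0.37 ± 0.076 (SE, adjusted p = 0.0011). On fasting 1 of the 6 rose and 1 fell in wild-type mice, and 0 rose and 2 fell in WT/Y657* mice. These counts are near the shares of all genes that passed, 32% and 32.9%. *Hgf* itself had genotype log2 fold changes of 0.19 (adjusted p = 0.382) fed, -0.089 (adjusted p = 0.649) fasted and 0.14 (adjusted p = 0.698) refed.

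*Lrat*, lecithin retinol acyltransferase, which makes the retinyl ester that stellate cells store, was at 19.7 to 38 CPM (median 32.9) in fed, 22.6 to 26.5 (median 24.5) in fasted and 35.1 to 55.2 (median 41.4) in refed wild-type mice. All refed mice were above all fasted ones. It rose on refeeding by 0.79 ± 0.18 (SE, adjusted p = 0.00102) on the log2 scale. In the mutant mice it was at 34.3 to 70.9 CPM (median 48.8), 20.8 to 39.2 (median 33) and 34.5 to 76.1 (median 42.4), and it fell on fasting with a log2 fold change of -0.64 ± 0.18 (SE, adjusted p = 0.00628) and rose on refeeding by 0.58 ± 0.18 (SE, adjusted p = 0.0128). The fasting value of wild-type mice was -0.36 ± 0.18 (SE, adjusted p = 0.141). Without RF6_MT_814, the highest of its group at 76.1 CPM, the refeeding value of WT/Y657* mice was 0.39 (adjusted p = 0.0700). Between genotypes *Lrat* did not pass in fed mice, at 0.63 ± 0.18 (SE, adjusted p = 0.0515).

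The fibrillar collagens of the stellate list had their highest medians in fed and their lowest in refed mice. *Col3a1* was at 31.8 to 105 CPM (median 64.4) in fed, 22.9 to 35.7 (median 29.4) in fasted and 19.4 to 27 (median 22.8) in refed wild-type mice. Of the fasted mice 4 of 6 were below all fed ones. The log2 fold change on fasting was -1.14 ± 0.26 (SE, adjusted p = 0.000806). In WT/Y657* mice it was at 41.2 to 107 CPM (median 82.8), 21 to 52.1 (median 27.7) and 19.2 to 47 (median 25), with 5 of 6 fasted mice below all fed ones and a log2 fold change of -1.27 ± 0.25 (SE, adjusted p = 0.000222).

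*Col1a1* fell on fasting from a fed range of 4.91 to 28.2 (median 14.8) CPM to 1.63 to 8.15 (median 4.77) CPM in wild-type mice, with a log2 fold change of -1.51 ± 0.40 (SE, adjusted p = 0.00393). In mutant livers the ranges were 4.16 to 22.1 (median 13.1) and 3.33 to 11.1 (median 5.80) CPM, and the value -1.05 ± 0.39 (SE, adjusted p = 0.0385) lost its call without any 1 of 9 of the 12 mice. *Col1a2*, the partner chain of type I collagen, passed on refeeding instead, at 13 to 19 CPM (median 15.5) in fasted and 6.93 to 10.8 (median 8.75) in refed wild-type mice, which did not overlap. The log2 fold changes were -0.84 ± 0.24 (SE, adjusted p = 0.00853) in wild-type and -0.65 ± 0.24 (SE, adjusted p = 0.0351) in WT/Y657* mice, the latter lost without any 1 of 7 mice. Of 19 other tested stellate, fibroblast and muscle genes 4 rose and 3 fell on fasting in wild-type mice (median 0.066), and 3 rose and 3 fell in WT/Y657* mice (median 0.0095). Of all genes 32% and 32.9% passed in these comparisons. *Cxcl12*, a chemokine, rose in both genotypes, by 0.62 (adjusted p = 2.55e-05) and 0.35 (adjusted p = 0.0113) on the log2 scale. *Col4a1* and *Col4a2*, the basement membrane collagens, fell with log2 fold changes of -0.62 (adjusted p = 0.00245) and -0.72 (adjusted p = 7.53e-05) in wild-type and -0.58 (adjusted p = 0.00438) and -0.74 (adjusted p = 5.22e-05) in WT/Y657* mice.

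*Reln*, the secreted glycoprotein reelin, was at 137 to 153 CPM (median 148) in fasted and 94.6 to 143 (median 114) in refed wild-type mice, and at 124 to 166 (median 144) and 88.4 to 107 (median 97.3) CPM in WT/Y657* mice. Among WT/Y657* mice the groups did not overlap. Its log2 fold change on refeeding was -0.35 ± 0.12 (SE, adjusted p = 0.0204) in wild-type and -0.57 ± 0.12 (SE, adjusted p = 0.000207) in WT/Y657* mice. *Des*, the intermediate filament desmin, was at 3.84 to 6.92 CPM (median 4.32) and 2.17 to 4.48 (median 2.96) in fasted and refed wild-type mice, with -0.69 ± 0.21 (SE, adjusted p = 0.0113). *Ngfr*, the low-affinity neurotrophin receptor, was at 6.99 to 13.4 CPM (median 10.9) in fed and 4.77 to 7.93 (median 5.97) in fasted WT/Y657* mice, with 4 of 6 fasted mice below all fed ones and a log2 fold change of -0.75 ± 0.25 (SE, adjusted p = 0.0187). *Pdgfrb*, the platelet-derived growth factor receptor of stellate cells and pericytes, passed in no comparison, and ranged over 6.40 to 25.7 CPM.

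*Acta2*, the smooth muscle actin of vessel walls and of activated stellate cells, had the largest log2 fold change of the 42 markers in a comparison of 2 groups. It was at 1.16 to 15 CPM (median 3.13) in fasted and 0.369 to 1.81 (median 0.875) in refed wild-type mice. Fasted ONF_WT_824 and ONF_WT_920 stood at 15 and 10.4 CPM, the other 4 at 1.16 to 3.65 CPM, and 5 of 6 refed mice were below all fasted ones. The log2 fold change was -2.67 ± 0.64 (SE, adjusted p = 0.00177), and from -2.92 to -2.13 when 1 mouse was left out. *Myh11*, the myosin of smooth muscle, moved with it, at 2.79 to 26.8 CPM in fasted and 1.17 to 4.31 CPM in refed wild-type mice, with -2.26 ± 0.48 (SE, adjusted p = 0.000498). In WT/Y657* mice *Acta2* did not pass, at -0.54 ± 0.58 (SE, adjusted p = 0.513), and the difference between the responses was 2.13 ± 0.86 (SE, adjusted p = 0.21). The share of vessel wall in each liver piece was not tested.

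**Figure D5:**
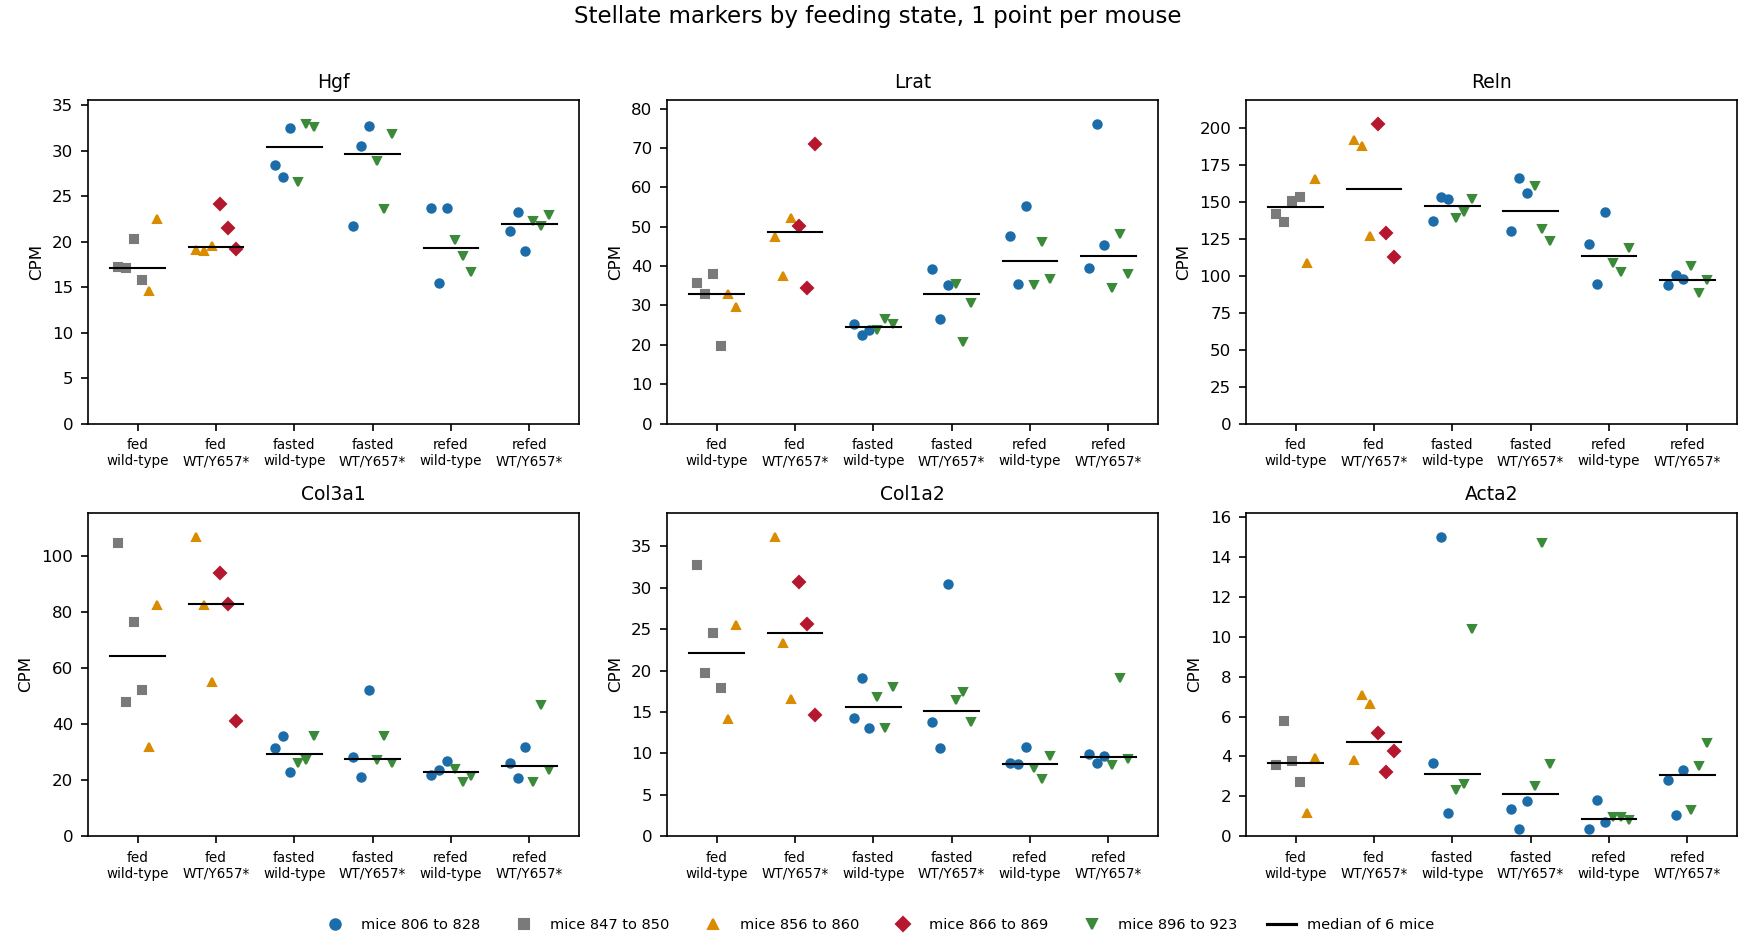
CPM (y axis) of *Hgf*, *Lrat*, *Reln*, *Col3a1*, *Col1a2* and *Acta2* by genotype and feeding state (x axis), with 1 point per mouse and lines for the median of 6 mice. *Hgf* peaked in fasted mice, *Lrat* was lowest there, and the collagens were highest in fed mice.

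*Dcn*, decorin, a proteoglycan that binds collagen and TGF-beta, was the 1 marker called between genotypes in both fed and fasted mice. It was at 101 to 149 CPM (median 126) in wild-type and 155 to 209.9 (median 165) in WT/Y657* fed mice, which did not overlap, as was the case for 1 of 42 markers and 1.07% of all genes. The log2 fold change was 0.43 ± 0.12 (SE, adjusted p = 0.0407). In fasted mice it was at 134 to 175 CPM (median 151) and 167 to 271 (median 185), with 5 of 6 WT/Y657* mice above all wild-type mice and 0.42 ± 0.12 (SE, adjusted p = 0.015). Within the mouse number series the fasted difference in mean log2 CPM was 0.61 for the lower and 0.19 for the higher numbers, and it was 0.40 in the mixed series of fed mice. In refed mice *Dcn* did not pass, at 0.1 ± 0.12 (SE, adjusted p = 0.813).

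*Rgs5*, a regulator of G protein signalling in pericytes, was at 39.7 to 53.7 CPM (median 48.5) in wild-type and 44.5 to 116 (median 78.4) in WT/Y657* fasted mice. Of the latter 5 of 6 were above all wild-type mice, and the log2 fold change was 0.74 ± 0.21 (SE, adjusted p = 0.0157). It was 0.86 and 0.47 in mean log2 CPM within the 2 mouse number series. Fasted ONF_MT_827 had the highest stellate sum of its group (739.9 CPM, against 497 to 588 CPM in the other 5). Without it the calls of *Dcn*, *Rgs5* and *Lyve1* were all lost (adjusted p = 0.0693, 0.0587 and 0.0846), at log2 fold changes of 0.31, 0.59 and 1.04. In fed mice the genotype difference of *Rgs5* was 0.53 ± 0.21 (SE, adjusted p = 0.163) and in refed mice 0.39 ± 0.20 (SE, adjusted p = 0.553).

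The duct markers were few and mostly at low counts. *Sox9*, a transcription factor of duct cells, was at 2.49 to 6.40 CPM (median 4.38) in fed and 1.73 to 3.72 (median 2.03) in fasted wild-type mice, with 4 of 6 fasted mice below all fed ones. It fell with a log2 fold change of -0.88 ± 0.31 (SE, adjusted p = 0.0269), a call lost without any 1 of 6 of the 12 mice. *Krt19* was at 0.468 to 2.06 CPM (median 1.69) in fed and 0.111 to 0.842 (median 0.677) in fasted WT/Y657* mice, with -1.31 ± 0.48 (SE, adjusted p = 0.0348), lost without any 1 of 5 mice. *Spp1* was at 25.6 to 68.1 CPM (median 43.4) in fed, 20.9 to 43.4 (median 30.7) in fasted and 15.5 to 25.7 (median 19.6) in refed wild-type mice. It did not pass, at -0.57 ± 0.24 (SE, adjusted p = 0.0669) on fasting and -0.61 ± 0.24 (SE, adjusted p = 0.0568) on refeeding, the latter called by DESeq2 and by the likelihood ratio test. *Krt7* and *Epcam* passed in no comparison, at up to 1.61 and 2.58 CPM. By genotype 0 of 5 duct markers had an unadjusted p under 0.05 in any feeding state.

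How far markers of 1 class varied together over mice was measured for 4 pairs, with the mean of each group subtracted and a permutation test within groups (100000 resamples, two-sided, adjusted over the 4 pairs). The Kupffer cell genes *Clec4f* and *Vsig4* had r = 0.90 and rho = 0.89 over 36 mice, with a permutation p of 1e-05 for each, the smallest that the resampling can give (adjusted p = 2e-05). The collagen genes *Col1a1* and *Col3a1* had r = 0.88 and rho = 0.89, with the same permutation p values. For *Krt7* and *Krt19*, r was 0.33 and rho 0.35 (permutation p = 0.0728 and 0.0508, adjusted 0.0971 and 0.0677). For the endothelial pair *Stab2* and *Clec4g*, r was 0.17 and rho 0.21 (permutation p = 0.35 and 0.242, not changed by adjustment). Without the 2 mice farthest from the median of the first gene, r was 0.88, 0.87, 0.37 and 0.072 in this order. The levels share a library and its scaling, and an association of this kind was shown for the Kupffer and the collagen pair only.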

How the data were processed

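Total liver RNA of 36 mice had been sequenced as 50-base single reads from stranded TruSeq libraries. The authors deposited 1 table of estimated counts per gene and library, and 3.64% of its non-zero counts were not whole, so values were rounded. The submitters' processing notes name Cuffdiff, SAMtools, featureCounts and edgeR and list the build mm9, while the table's loci follow GRCm38 (21 of the 43 markers have the locus of GENCODE M21). The strand setting of the counting is not given in the sources used here, and 14 markers share exonic sequence with another gene. The table of fitted values, which holds group means, was not used.

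Counts were filtered by filterByExpr (13945 of 38283 genes kept), scaled by TMM (factors 0.914 to 1.09) and fitted in 1 model with a coefficient for each of the 6 groups (edgeR 4.0.16, R 4.3.3, common coefficient of variation 0.181). Contrasts were tested two-sided with the robust quasi-likelihood test, and p-values were adjusted over all genes tested by the Benjamini-Hochberg method, with a threshold of 0.05. CPM use the same scaling, and mean log2 CPM carry a prior count of 2. Differences between genotypes in a response were tested as contrasts of 4 groups. Library totals were 8839488 to 19542775 counts, and the duct keratins carry large counting error. Mouse numbers differ between the groups, so no mice were paired, and the series of mouse numbers served as a block in an alternative. Other alternatives were DESeq2 1.42.0, the likelihood ratio test, other size factors or filters, the compared groups alone and each mouse left out. The scripts were tested on simulated data.

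Markers called in a comparison are given in full, at most 15 each, and the other lists by counts and at most 3 genes each, with *Hamp* added. The members, lists, windows and motifs were chosen with earlier results of these data known. No library was a copy of another of its group, since counts of any 2 libraries of a group differed by more than sampling noise (chi-square of at least 6.54 per degree of freedom). Libraries of different groups were not compared in this way.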

Additional observations from a re-analysis of the deposited data

Results flagged for a closer look

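In groups of 6 mice, a value was looked at again where the gap between an extreme mouse and its neighbour exceeded 0.625 of the range of the group (Dixon's test). This was the case in 17 of 258 groups of single markers and 3 of 24 groups of class sums. Chance flags about 1 in 20 groups.

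Of the refed WT/Y657* mice, RF6_MT_898 stood apart in the Kupffer and immune class sum, at 811 CPM, and in *Cd5l* (223 CPM), *Marco* (109.6 CPM), *Lyz2* (110.1 CPM), *Itgax* (3.72 CPM), *Col1a1* (8.02 CPM) and *Col1a2* (19.1 CPM). Mouse RF6_MT_814 of the same group was high in *Lrat*, at 76.1 CPM. Of the refed wild-type mice, RF6_WT_828 stood apart in the stellate class sum (536 CPM), *Clec4f* (168 CPM), *Timd4* (12.9 CPM) and *Stab2* (107 CPM). In RF6_MT_898 and RF6_WT_828 immune markers and stellate or endothelial markers were high together, and the cause was not tested.

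Of the fasted WT/Y657* mice, ONF_MT_827 stood apart in the stellate class sum (739.9 CPM), *Col1a2* (30.5 CPM) and *Itgax* (5.75 CPM), ONF_MT_922 in *Acta2* (14.7 CPM), ONF_MT_806 in *Cd3e* (1.21 CPM) and ONF_MT_923 at the low end in *Eng* (40.2 CPM). Mice ONF_MT_827 and ONF_MT_806 are those on which the genotype calls of *Lyve1* and *Rgs5* in fasted mice depended. Of the fed WT/Y657* mice, ALC_MT_866 was high in *Lyve1* (32.9 CPM) and *Dcn* (209.9 CPM).

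The fasting response of *Tie1* differed between genotypes in the test of the difference itself, with a log2 value of -0.58 (WT/Y657* minus wild-type, edgeR, adjusted p = 0.0216). It was not tested with the mouse number series as a block.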

How the results depend on the processing

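The count of markers called between genotypes in fed mice moved most. It was 2, and became 7 with DESeq2, 6 with the likelihood ratio test, 7 with library size alone, 0 without a filter, 0 with only the fed groups fitted, 0 with the mouse number series as a block, and 0 to 9 when 1 mouse was left out. With only the compared groups fitted, 18 rather than 11 markers were called on fasting and 19 rather than 11 on refeeding of wild-type mice. Leaving out 1 mouse gave 0 to 4 calls between genotypes in fasted mice (0 without ONF_MT_827, 1 without ONF_MT_806), 9 to 17 on refeeding of wild-type mice (17 without RF6_WT_828) and 0 to 1 for the refeeding difference (1 without ONF_MT_922). The mean endothelial sum of refed WT/Y657* mice was 528.9 CPM, and 560.5 CPM with library size alone. The genotype difference of *Wnt2* in fed mice, -0.22, was 0.098 with the block, and neither value passed. The causes were not tested. The other 61 counts of called markers with a setting other than leaving out a mouse stayed within 1.5 times. Of the values of single markers under those settings 443 kept direction and call, 20 lost and 8 gained the call.

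No paired analysis was possible because the labels number each mouse once. The block could not be fitted for fasted against fed mice, which share no series, and was not fitted for the genotype difference in that response. It moved no other count of calls past 1.5 times. Depth limits the duct keratins, *Cd3e*, *Itgax*, *Wnt2* and *Wnt9b*, which were read at few counts.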

Other observations

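Genes of other cells of the liver were read in the same libraries. Of 4 tested mesothelial genes and, between genotypes, of 4 tested blood genes, 0 passed, and none of 5 pancreatic genes was tested, at summed levels of up to 2.56 CPM. The heme synthesis gene *Alas2* fell on fasting in both genotypes, with log2 fold changes of -0.49 (adjusted p = 0.000798) and -0.72 (adjusted p = 3.51e-06). Of 4 tested proliferation genes 3 fell on fasting of WT/Y657* mice (17.7% of all genes), *Mki67* with -1.27 (adjusted p = 0.00205), and 0 passed in wild-type mice (32% of all genes). The proliferation sum was 7.80 to 33.7 CPM in fed WT/Y657* mice and 11.4 to 16.6 CPM in fed wild-type mice, and ALC_MT_866 and ALC_MT_868, the highest, were also the highest in Kupffer and lymphocyte genes.

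Of 25 other endothelial genes 5 rose and 1 fell on fasting of wild-type mice (median 0.022), where 32% of all genes passed. Among those that rose was *Egfl7*, a secreted factor of endothelium, with a log2 fold change of 0.58 (adjusted p = 2.95e-05). Fasting of WT/Y657* mice raised 3 and lowered 5 (median -0.045), where 32.9% of all genes passed. On refeeding 1 rose and 5 fell in wild-type mice, and 1 rose and 7 fell in WT/Y657* mice, where 30.2% and 31.3% of all genes passed. The latter included *Ptprb*, the phosphatase that acts on the receptor encoded by *Tek*, with -0.52 (adjusted p = 1.53e-06). Between genotypes 2 of the 25 were higher and 1 lower in fed WT/Y657* mice (1.21% and 1.15% of all genes). These were *Flt4* with 0.47 (adjusted p = 0.0163), *Mrc1* with 0.40 (adjusted p = 0.0358) and *Nrp1* with -0.58 (adjusted p = 0.0197). In fasted mice 2 were higher and 2 lower (6.43% and 6.63% of all genes), and in refed mice 0 passed (0.0287%). Of 19 other tested stellate, fibroblast and muscle genes 2 were higher and 0 lower in fed WT/Y657* mice (1.21% and 1.15% of all genes, median 0.20). They were the stellate collectins *Colec10*, with 0.68 (adjusted p = 0.00335), and *Colec11*, with 0.76 (adjusted p = 0.00425). In fasted WT/Y657* mice 1 was higher and 0 lower (6.43% and 6.63% of all genes, median 0.097), *Colec10* with 0.59 (adjusted p = 0.0016). These calls were not repeated with the block, and among fed mice the mouse number series nearly followed genotype. Of 6 tested other duct genes 1 rose and 1 fell on fasting of wild-type mice (32% of all genes passed), *Krt23* with 2.64 (adjusted p = 0.000508) and *Pkhd1* with -0.54 (adjusted p = 0.00952). Among WT/Y657* mice 0 rose and 2 fell (32.9% of all genes passed), *Pkhd1* with -0.76 (adjusted p = 0.000442) and *Ezr* with -0.80 (adjusted p = 0.00493). The fasting response of *Krt23* was lower in WT/Y657* mice, by -2.77 (adjusted p = 0.0355).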
